A study of Mus musculus with 5 samples.

Results

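The keratin genes were examined as a family in 5 RNA-sequencing libraries made from Ba/F3, an interleukin-3-dependent line of mouse pro-B cells, after lentiviral infection with 1 construct per library. Members were the rows of the deposited table whose symbol is KRT, a number and at most 1 further letter, without the word pseudogene in their description. This gave 55 keratin genes of 50867 rows in all. The libraries carried the labels S_PXT1_K118R, S_PXT1, WT_K118R, WT and PMSCV, with 1 library in each group. PMSCV names the vector, against which S_PXT1 and WT are set here, K118R names a lysine to arginine substitution, and the labels do not spell out S or WT. All groups share the cell line and the infection, and nothing in the labels tells of separate cultures. With no replicate, differences carry intervals for counting error only and no p-value.

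Keratins form the intermediate filaments of epithelial cells. A filament needs an acidic type I keratin and a basic type II keratin in equal amounts, so the genes are used in pairs that mark the kind and layer of an epithelium. KRT5 and KRT14 mark the basal layer of stratified epithelia, KRT4 and KRT13 the suprabasal layers of moist mucosa such as oesophagus, KRT6A, KRT16 and KRT17 wounded or stressed epidermis and skin appendages, and KRT8 and KRT18 simple, single-layered epithelia. Blood cells are not a known site of these filaments, and they use vimentin and lamins instead.

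The table lists human gene identifiers, symbols and positions although the labels give mouse cells, and a keratin count here means reads placed on a human gene model. S_PXT1_K118R was the shallowest library with 250409 counts and WT the deepest with 351693. A count of 0 allows up to 3 counts, or between 8.77 and 11.8 CPM, the unit of counts scaled to a common library size. PXT1, the gene in the construct names, had 0 counts in all 5 libraries, so the labels have no check from it. Of the pro-B and blood cell markers, CD79A, CD79B, VPREB1, IGLL1 and IL3RA were at 0 counts in every library, and 4 to 8 of the 14 markers had a count in any 1 library. IKZF1, a lymphoid transcription factor, had 24 to 34 counts throughout. SPI1, a blood cell transcription factor, had 1 count in WT_K118R and 113 to 173 elsewhere. LCP1, an actin-bundling protein of leukocytes, went the other way, with 3 counts in S_PXT1_K118R and in S_PXT1, 117 in WT_K118R, 101 in WT and 67 in PMSCV. S_PXT1_K118R and S_PXT1 stood apart from the other libraries, with a count for 7044 and 7393 genes, against 11504 in WT_K118R, 11712 in WT and 11492 in PMSCV.

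Keratin counts came almost wholly from 3 of the 5 libraries, and each of these had its own mixture. All 55 genes summed to 1 count in S_PXT1_K118R, 1 in S_PXT1, 618 in WT_K118R, 882 in WT and 343 in PMSCV. As a share of all counts this was 0.178% in WT_K118R, 0.251% in WT (95% exact binomial interval 0.235% to 0.268%) and 0.129% in PMSCV. WT_K118R held mainly basal and stress keratins, WT mainly mucosal keratins, and PMSCV mainly stress and basal keratins. In bulk RNA, fewer cells of a type and less RNA per cell cannot be told apart.

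Across the family 34 genes had 0 counts in all libraries and 21 had a count in at least 1. Both types were represented, by 10 of 29 type I genes and 11 of 26 type II genes. The type I genes lie on chromosome 17, apart from KRT18, and the type II genes on chromosome 12, in the coordinates of the table, for which no label or header names a genome build. In WT_K118R 32.7% of the keratin genes had a count, against 22.6% of all genes in the table. The values were 29.1% against 23.0% in WT, 27.3% against 22.6% in PMSCV, and 1.82% in both S_PXT1_K118R and S_PXT1, against 13.8% and 14.5% of all genes there.

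**Figure D1:**
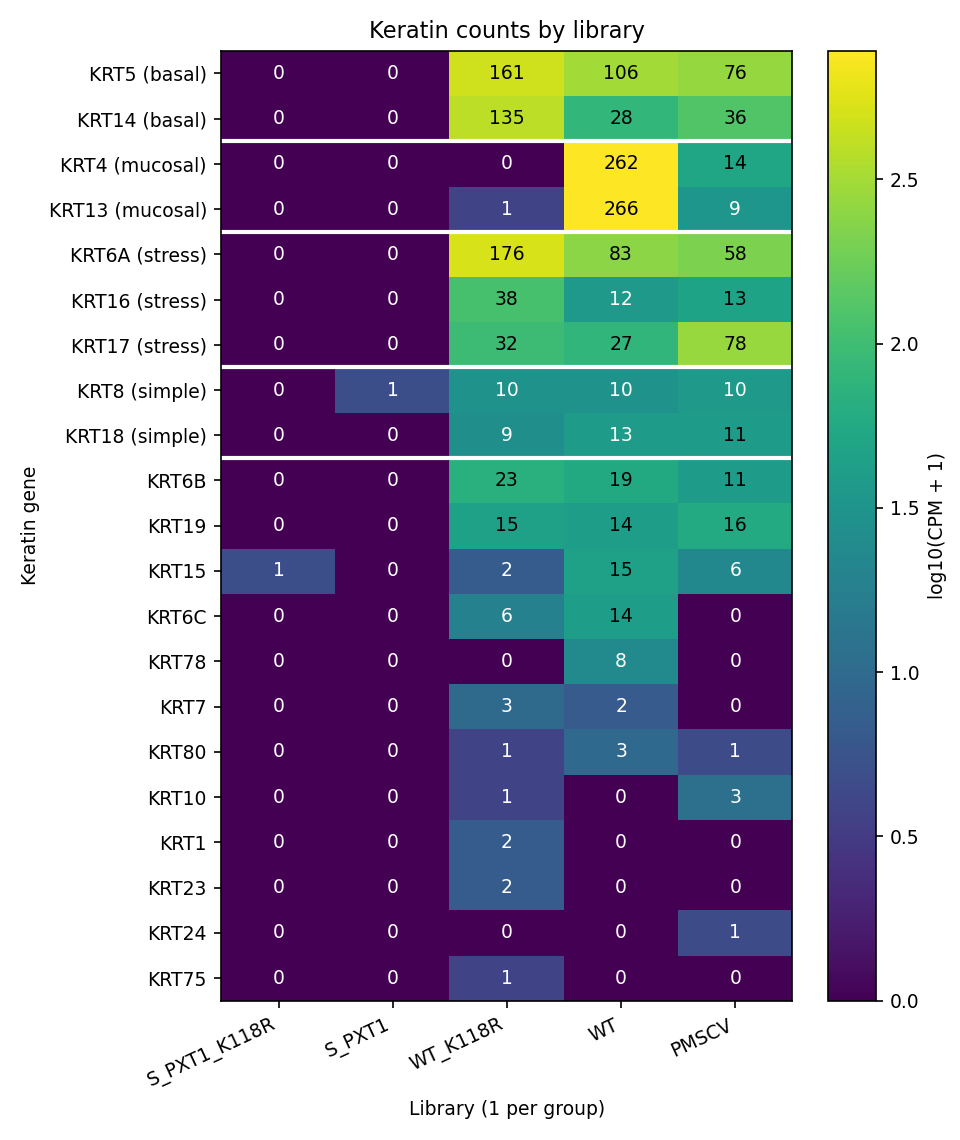
Counts of the 21 keratin genes with a count in any library (rows, by group) in the 5 libraries (columns). Each cell prints the count and is shaded by log10(CPM + 1). The S_PXT1_K118R and S_PXT1 columns hold a single count each, KRT4 and KRT13 are bright in WT, and KRT5, KRT14 and KRT6A in WT_K118R.

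The basal pair was highest in WT_K118R. KRT5 (ENSG00000186081, chromosome 12, 52514575 to 52520687, minus strand), the basal type II keratin, had 0 counts in S_PXT1_K118R and S_PXT1, 161 in WT_K118R, 106 in WT and 76 in PMSCV. KRT14 (ENSG00000186847, chromosome 17, 41582279 to 41586921, minus strand), its type I partner, had 0 counts in S_PXT1_K118R and S_PXT1, 135 in WT_K118R, 28 in WT and 36 in PMSCV. The pair differed between WT_K118R and WT by more in KRT14 than in KRT5. KRT14 was 4.89-fold higher in WT_K118R than in WT (95% interval 3.23 to 7.63), and KRT5 was 1.54-fold higher (1.20 to 1.99). Between WT and PMSCV neither interval excluded equal levels, at 1.15-fold (0.846 to 1.56) for KRT5 and 0.640-fold (0.376 to 1.08) for KRT14. The summed pair stood at 877 CPM in WT_K118R, 392 CPM in WT and 398 CPM in PMSCV. WT_K118R was therefore 2.24-fold above WT (1.82 to 2.77), and WT was at 0.984 of PMSCV (0.760 to 1.28).

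The mucosal pair behaved unlike the basal pair. KRT4 (ENSG00000170477, chromosome 12, 52806549 to 52814551, minus strand), the mucosal type II keratin, had 0 counts in S_PXT1_K118R, S_PXT1 and WT_K118R, 262 in WT and 14 in PMSCV. KRT13 (ENSG00000171401, chromosome 17, 41500981 to 41505705, minus strand), its type I partner, had 0 counts in S_PXT1_K118R and S_PXT1, 1 in WT_K118R, 266 in WT and 9 in PMSCV. WT was the high library for both genes, and WT_K118R was at or near 0 for both although it had the most basal keratin. KRT4 was at least 86.2-fold lower in WT_K118R than in WT, and KRT13, with 1 count in WT_K118R, was 262-fold lower (46.7 to 10406). Against PMSCV, WT was 15.4-fold higher for KRT4 (9.01 to 28.5) and 24.3-fold higher for KRT13 (12.6 to 53.7). The summed pair had 1544 CPM in WT and 81.8 CPM in PMSCV, 18.9-fold higher in WT (12.4 to 30.0).

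The stress keratins did not form a single pattern. KRT6A (ENSG00000205420, chromosome 12, 52487174 to 52493257, minus strand), a type II keratin induced in wounded epidermis, had 0 counts in S_PXT1_K118R and S_PXT1, 176 in WT_K118R, 83 in WT and 58 in PMSCV. KRT16 (ENSG00000186832, chromosome 17, 41609778 to 41615899, minus strand), a type I partner of KRT6A, had 0 counts in S_PXT1_K118R and S_PXT1, 38 in WT_K118R, 12 in WT and 13 in PMSCV. KRT17 (ENSG00000128422, chromosome 17, 41619437 to 41624842, minus strand), a type I keratin of hair follicles and injured skin, had 0 counts in S_PXT1_K118R and S_PXT1, 32 in WT_K118R, 27 in WT and 78 in PMSCV. KRT6A and KRT16 were highest in WT_K118R, like the basal pair, and KRT17 was highest in PMSCV. WT_K118R exceeded WT 2.15-fold for KRT6A (1.65 to 2.82) and 3.21-fold for KRT16 (1.64 to 6.75), and the interval for KRT17 included equal levels, at 1.20-fold (0.697 to 2.08). KRT17 was 3.51-fold lower in WT than in PMSCV (2.24 to 5.66), while KRT6A and KRT16 stood at 1.18-fold (0.831 to 1.68) and 0.759-fold (0.317 to 1.80).

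As a group the 3 stress keratins had 729 CPM in WT_K118R, 357 CPM in WT and 530 CPM in PMSCV. WT_K118R was 2.04-fold above WT (1.64 to 2.56), and WT was at 0.673 of PMSCV (0.526 to 0.861). Without KRT6A the ratio of WT to PMSCV was 0.352, since KRT17 then made up most of the sum. With KRT6B and KRT6C, close copies of KRT6A, added to the group, it was nearer to equal levels at 0.797. That sum, chosen after seeing the data, held 155 counts in WT and 160 in PMSCV.

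The simple keratins had similar counts in WT_K118R, WT and PMSCV. KRT8 (ENSG00000170421, chromosome 12, 52897187 to 52949954, minus strand), the type II keratin of simple epithelia, had 0 counts in S_PXT1_K118R, 1 in S_PXT1 and 10 in each of WT_K118R, WT and PMSCV. KRT18 (ENSG00000111057, chromosome 12, 52948871 to 52952901, plus strand), its type I partner, had 0 counts in S_PXT1_K118R and S_PXT1, 9 in WT_K118R, 13 in WT and 11 in PMSCV. No library among WT_K118R, WT and PMSCV stood out for either gene. The 2 gene models overlap by 1084 bases on opposite strands, and as the strand setting is not given, reads in that stretch cannot be assigned to 1 of them. Summed, the pair had 56.3 CPM in WT_K118R, 67.3 CPM in WT and 74.7 CPM in PMSCV. The ratio of WT_K118R to WT was 0.837 (0.431 to 1.61) and that of WT to PMSCV 0.901 (0.477 to 1.71), so a 2-fold lower level lies within both intervals and was not detectable at this depth.

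**Figure D2:**
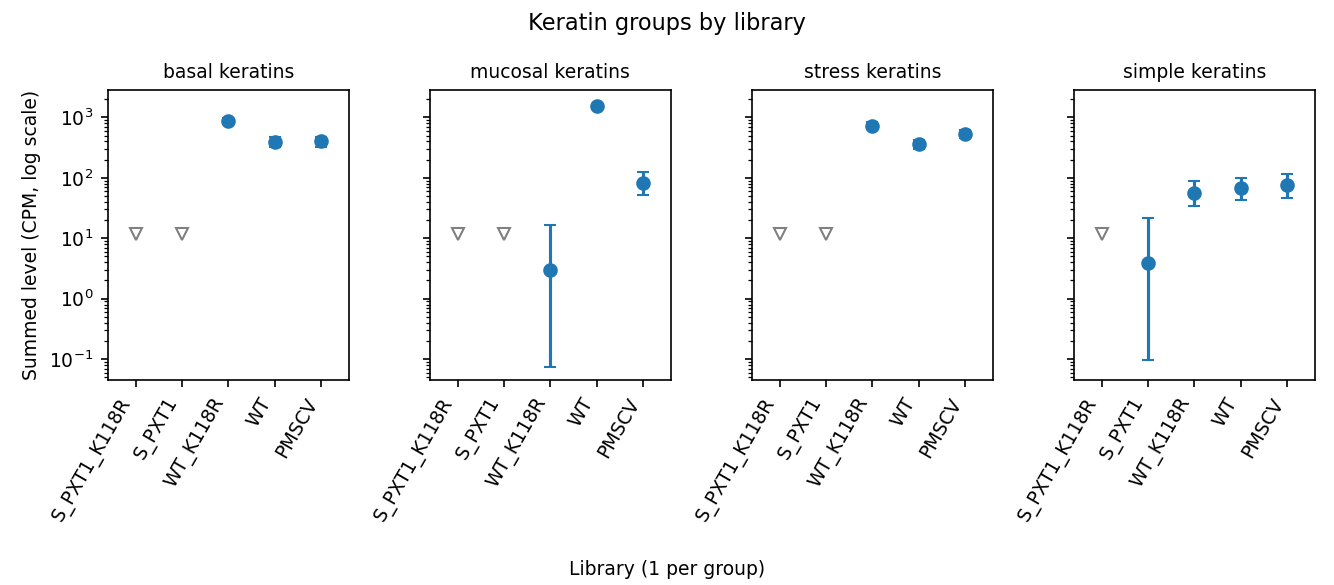
Summed level of the basal, mucosal, stress and simple keratins (panels) in the 5 libraries (horizontal axis), in CPM on a log scale. Circles are levels with exact 95% Poisson intervals for counting error, and open triangles mark the level of 3 counts in a library with 0 counts. WT_K118R is highest for basal keratins at 877 CPM, WT for mucosal keratins at 1544 CPM, and the simple keratins lie between 56.3 and 74.7 CPM in WT_K118R, WT and PMSCV.

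Beyond these 9 genes, 4 members reached 10 counts over the 5 libraries. KRT6B (ENSG00000185479, chromosome 12, 52446651 to 52452126), a close copy of KRT6A, had 0 counts in S_PXT1_K118R and S_PXT1, 23 in WT_K118R, 19 in WT and 11 in PMSCV. KRT6C (ENSG00000170465, chromosome 12, 52468516 to 52473785), the other copy, had 0 counts in S_PXT1_K118R and S_PXT1, 6 in WT_K118R, 14 in WT and 0 in PMSCV. Reads could be split between KRT6A, KRT6B and KRT6C, so their values are uncertain, and their sum is the firmer measure. It was 205 counts in WT_K118R, 116 in WT and 69 in PMSCV, 1.79-fold higher in WT_K118R than in WT (1.42 to 2.27) and 1.38-fold higher in WT than in PMSCV (1.02 to 1.89). KRT14, KRT16 and KRT17 are likewise close in sequence to each other, and summed to 205, 67 and 127 counts in WT_K118R, WT and PMSCV. That sum was 3.10-fold higher in WT_K118R than in WT (2.34 to 4.15) and 2.30-fold lower in WT than in PMSCV (1.70 to 3.15).

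KRT19 (ENSG00000171345, chromosome 17, 41523617 to 41528308), a type I keratin of simple and glandular epithelia, had 0 counts in S_PXT1_K118R and S_PXT1, 15 in WT_K118R, 14 in WT and 16 in PMSCV. Its counts in WT_K118R, WT and PMSCV were as close together as those of KRT8 and KRT18. KRT15 (ENSG00000171346, chromosome 17, 41513743 to 41522529), a type I keratin of basal cells, had 1 count in S_PXT1_K118R, 0 in S_PXT1, 2 in WT_K118R, 15 in WT and 6 in PMSCV. KRT15 went against the basal pair, as it was 7.40-fold lower in WT_K118R than in WT (1.72 to 66.7). The remaining 8 detected genes had 1 to 9 counts each and 28 in all. Among them KRT78 had 8 counts in WT and 0 in the other libraries, and it was picked out for that value. KRT1 and KRT10, the suprabasal pair of dry epidermis, had 2 counts and 1 count in WT_K118R, 0 and 0 in WT, and 0 and 3 in PMSCV, at or under the limit of 3 counts.

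The mixture of keratins differed among WT_K118R, WT and PMSCV. Basal keratins made up 47.9% of keratin counts in WT_K118R (95% exact interval 43.9% to 51.9%), 15.2% in WT (12.9% to 17.7%) and 32.7% in PMSCV (27.7% to 37.9%). Mucosal keratins made up 0.162% in WT_K118R (0.00410% to 0.898%), 59.9% in WT (56.5% to 63.1%) and 6.71% in PMSCV (4.30% to 9.89%). The mucosal intervals of all 3 libraries were separate. Stress keratins made up 39.8% in WT_K118R (35.9% to 43.8%), 13.8% in WT (11.6% to 16.3%) and 43.4% in PMSCV (38.1% to 48.9%). Simple keratins made up 3.07% in WT_K118R (1.86% to 4.76%), 2.61% in WT (1.66% to 3.89%) and 6.12% in PMSCV (3.83% to 9.21%), and all 3 intervals overlapped. Shares sum to 100%, so the mucosal counts in WT lower the share of every other group there. Without KRT4 and KRT13 in the sum, basal keratins made up 48.0% in WT_K118R (44.0% to 52.0%), 37.9% in WT (32.8% to 43.1%) and 35.0% in PMSCV (29.8% to 40.5%). Basal keratins then remained a larger share in WT_K118R than in WT, and the intervals of WT and PMSCV overlapped. Stress keratins made up 39.9% in WT_K118R (36.0% to 43.9%), 34.5% in WT (29.5% to 39.7%) and 46.6% in PMSCV (41.0% to 52.2%), where the interval of WT_K118R overlapped both others and those of WT and PMSCV did not overlap.

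**Figure D3:**
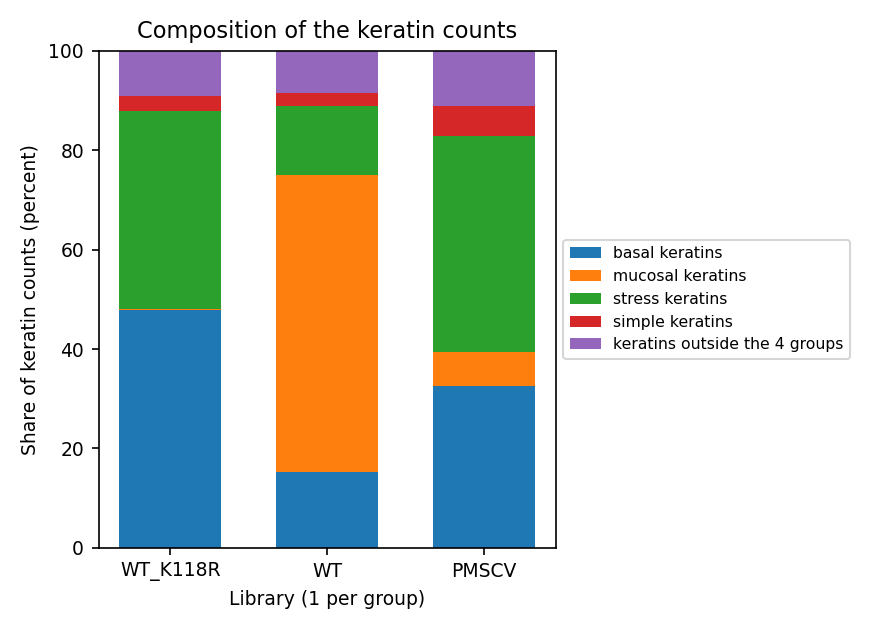
Share of the summed keratin counts (percent) taken by each group of keratins in WT_K118R, WT and PMSCV, stacked to 100%. Mucosal keratins fill 59.9% of the bar of WT and 0.162% of that of WT_K118R, while basal keratins fill 47.9% in WT_K118R and 15.2% in WT.

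Partners within a pair were compared per length on the deposited FPKM scale, which divides by gene length. KRT5 and KRT14 had 57.0 and 133 FPKM in WT_K118R, 37.1 and 27.3 FPKM in WT, and 35.1 and 46.2 FPKM in PMSCV. KRT14 thus had the higher FPKM in WT_K118R and PMSCV and the lower in WT. FPKM values carry no interval here, and the lengths behind them were not checked. In WT and PMSCV the 2 values were close, so counting error could change their order. Of the counts of this pair KRT5 took 54.4% in WT_K118R (48.5% to 60.2%), 79.1% in WT (71.2% to 85.6%) and 67.9% in PMSCV (58.4% to 76.4%), and the intervals of WT_K118R and WT did not overlap. KRT4 had the higher FPKM of the mucosal pair, with KRT4 and KRT13 at 156 and 126 FPKM in WT and 11.0 and 5.62 FPKM in PMSCV. KRT8 and KRT18 had 2.02 and 3.92 FPKM in WT_K118R, 1.99 and 5.60 FPKM in WT, and 2.63 and 6.25 FPKM in PMSCV. KRT6A and KRT17 had 127 and 16.6 FPKM in WT_K118R, 59.4 and 13.8 FPKM in WT, and 54.8 and 52.7 FPKM in PMSCV. KRT6A took 42.6% of the counts of KRT6A and KRT17 in PMSCV (34.2% to 51.4%), below the intervals of WT_K118R (79.0% to 89.2%) and WT (66.3% to 83.2%).

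Over the whole family neither type was scarce. Type II keratins took 62.0% of keratin counts in WT_K118R (58.0% to 65.8%), 57.5% in WT (54.1% to 60.8%) and 49.6% in PMSCV (44.1% to 55.0%). The summed FPKM of type II and type I genes was 226 and 198 in WT_K118R, 298 and 195 in WT, and 122 and 147 in PMSCV.

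The S_PXT1 construct was set against PMSCV and against WT to describe keratin reads with and without it. These comparisons share the S_PXT1 library and are not separate measurements. Basal keratins were at least 34.1-fold lower in S_PXT1 than in PMSCV and at least 33.5-fold lower than in WT. Stress keratins were at least 45.3-fold lower in S_PXT1 than in PMSCV and at least 30.5-fold lower than in WT. Mucosal keratins were at least 6.99-fold lower in S_PXT1 than in PMSCV and at least 132-fold lower than in WT. The simple pair, with 1 count in S_PXT1, was 19.2-fold lower in S_PXT1 than in PMSCV (3.08 to 792).

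Low values in S_PXT1 were also common among all genes. A gene was called when CPM with 1 added differed 2-fold or more, and 13352 genes averaging 1 CPM or more entered. Of the 55 keratins 19 entered, and those that entered did so through the libraries where they were high. In S_PXT1 over PMSCV 14 of the 19 were lower and 0 higher, while 43.8% of all genes were lower and 8.64% higher. The median log2 ratio of the 19 was -5.04, against -0.56 over all genes. With keratins at 0 counts taken at their bound, the keratin median was -1.74. For this, members at 3 counts or fewer in both libraries were set to 0. The bound was not taken over all genes, so that value has no counterpart there. In S_PXT1 over WT 16 of the 19 were lower and 0 higher, against 42.5% and 9.02% of all genes. The medians were -5.39 and -0.48. At the bound the keratin median was -1.81, again without a counterpart over all genes.

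Most genes called in this way rest on a few counts. Where the 95% interval of the ratio also had to exclude 1, a limit chosen after seeing the data, 12 of the 19 keratins were lower in S_PXT1 than in PMSCV against 7.33% of all genes, and 14 were lower than in WT against 6.30%. None of the 19 was higher by this limit in either comparison, 0 and 0, against 0.861% and 0.749% of all genes. Among the 6422 genes with at least 10 counts over the 5 libraries, 13.7% had 0 counts in both S_PXT1_K118R and S_PXT1, as had 11 of the 13 keratins with that many counts. The other 2 were KRT8 and KRT15, with 1 count each. At 100 counts or more, a minimum also chosen after seeing the data, it was 1.10% of 1547 genes, or 17 genes, of which 6 were keratins, namely KRT5, KRT14, KRT4, KRT13, KRT6A and KRT17. Every gene at 0 counts in both, keratin or not, reached its minimum through WT_K118R, WT and PMSCV alone.

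With the substitution in both constructs, S_PXT1_K118R was set against WT_K118R, a comparison that shares no library with S_PXT1 over WT. Basal keratins were at least 74.4-fold lower in S_PXT1_K118R, with KRT5 at least 40.5-fold and KRT14 at least 33.9-fold lower. Stress keratins were at least 61.8-fold lower, with KRT6A at least 44.2-fold, KRT16 at least 9.55-fold and KRT17 at least 8.04-fold lower. Simple keratins were at least 4.77-fold lower. The mucosal pair gave no fold, since both libraries were at or under the limit of 3 counts. Of the 19 keratins entering 16 were lower and 0 higher, against 44.0% and 8.94% of all genes, and 9 were lower and 0 higher with an interval excluding 1, against 6.53% and 0.801%. The median log2 ratio of the 19 was -4.23, against -0.49 over all genes. At the bound, with members at 3 counts or fewer in both libraries set to 0, the keratin median was -0.59. That value has no counterpart over all genes.

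WT was set against PMSCV to describe keratins with that construct relative to the vector. The family sum was 2.11-fold higher in WT (1.86 to 2.40), but without KRT4 and KRT13 it was 0.910 of PMSCV (0.780 to 1.06). Of the 19 keratins 7 were higher and 2 lower, against 20.3% and 23.2% of all genes. With an interval excluding 1, KRT4, KRT13, KRT6C and KRT78 were higher and KRT17 was lower, 4 and 1 of the 19, against 1.45% and 2.28% of all genes. The median log2 ratio of the 19 was 0.20, against -0.03 over all genes. At the bound the keratin median was 0.00, and it fell on members at 3 counts or fewer in both libraries, set to 0.

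The substitution was examined within each construct. In S_PXT1_K118R over S_PXT1 each library held 1 keratin count, KRT15 in S_PXT1_K118R and KRT8 in S_PXT1, so no fold can be given and a difference was not detectable at this depth. By the 2-fold limit 1 of the 19 was higher and 1 lower, against 15.2% and 17.6% of all genes, and each rests on a single count. With an interval excluding 1 it was 0 and 0, against 1.15% and 1.27% of all genes. The median log2 ratio was 0.00 for the 19 keratins and for all genes.

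In WT_K118R over WT members differed in both directions. The sum over the 55 genes was 1.41-fold lower in WT_K118R (1.27 to 1.56), but without KRT4 and KRT13 it was 1.77-fold higher (1.55 to 2.02). Of the 19 keratins 6 were higher and 6 lower, against 19.2% and 20.9% of all genes. With an interval excluding 1, KRT14, KRT16 and KRT6A were higher and KRT4, KRT13, KRT15 and KRT78 were lower, 3 and 4 of the 19, against 1.91% and 2.40% of all genes. The median log2 ratio of the 19 was 0.26, against 0.01 over all genes. At the bound the keratin median was 0.00. It fell on members at 3 counts or fewer in both libraries, which were set to 0.

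**Figure D4:**
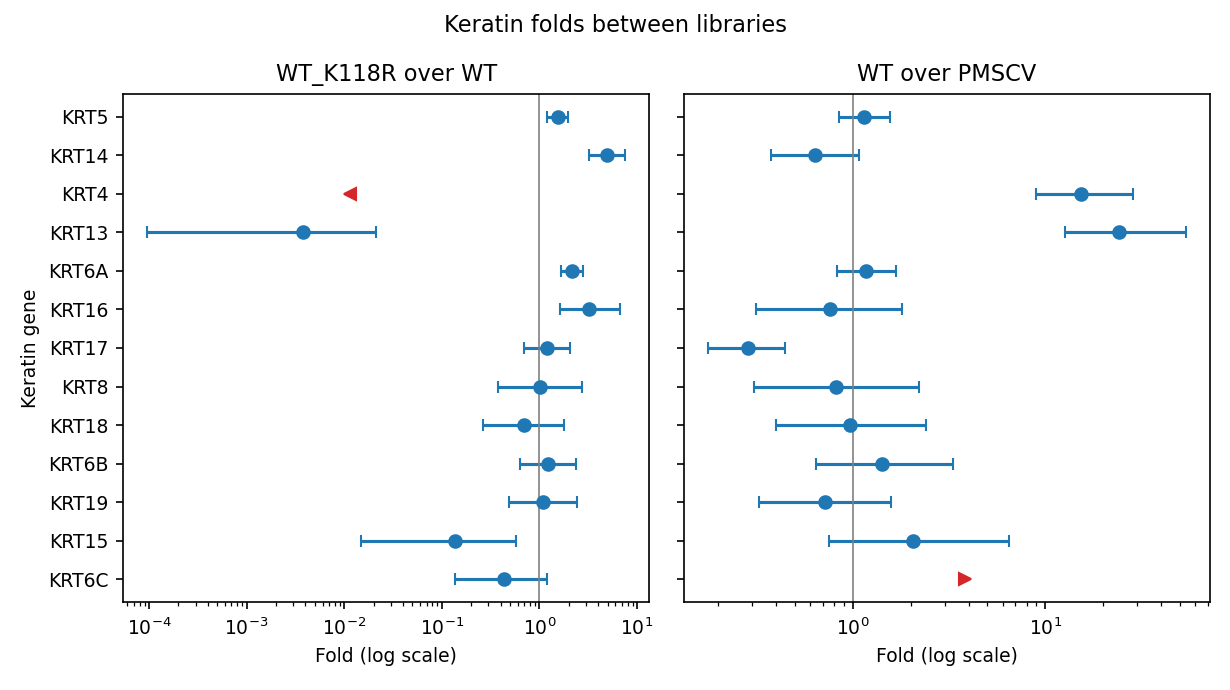
Fold of the 13 keratins with at least 10 counts over the 5 libraries, in WT_K118R over WT (left) and WT over PMSCV (right), each panel on its own log axis. Circles are folds with exact 95% intervals for counting error, red triangles are bounds against 3 counts in a library with 0 counts, and the vertical line marks equal levels. KRT4 and KRT13 lie far below the line at left and far above it at right, while KRT14, KRT16 and KRT6A lie above it at left and KRT17 below it at right.

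Genes that work with keratin filaments were followed through lists of companion genes. Desmosomes, the junctions that anchor keratin filaments between cells, had similar counts in WT_K118R, WT and PMSCV, like the simple keratins. Their 12 genes summed to 1 count in S_PXT1_K118R, 2 in S_PXT1, 157 in WT_K118R, 169 in WT and 153 in PMSCV. DSP, the plakin that binds keratin filaments, had 0 counts in S_PXT1_K118R and S_PXT1, 54 in WT_K118R, 58 in WT and 37 in PMSCV. PERP and JUP, a desmosomal membrane protein and plakoglobin, had 30 and 15 counts in WT_K118R, 22 and 17 in WT, and 27 and 22 in PMSCV. The summed ratio of WT_K118R to WT was 0.941 (0.753 to 1.18) and that of WT to PMSCV 0.908 (0.726 to 1.14). In S_PXT1 over PMSCV all 10 that passed the minimum of 1 CPM were lower by 2-fold or more, against 43.8% of all genes, and 9 with an interval excluding 1, against 7.33%.

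Hemidesmosomes fix the basal layer to the basement membrane. A joint list of hemidesmosome genes and plakins had its highest sum where the basal keratins were high. The 11 genes summed to 7 counts in S_PXT1_K118R, 3 in S_PXT1, 226 in WT_K118R, 103 in WT and 98 in PMSCV. The sum was 2.22-fold higher in WT_K118R than in WT (1.75 to 2.84), and the ratio of WT to PMSCV was 0.864 (0.649 to 1.15). LAMA3, a chain of laminin-332, had 0 counts in S_PXT1_K118R and S_PXT1, 44 in WT_K118R, 8 in WT and 14 in PMSCV, 5.57-fold higher in WT_K118R than in WT (2.60 to 13.7). PLEC, a plakin that many cell types use, had 7 counts in S_PXT1_K118R, 3 in S_PXT1, 29 in WT_K118R, 20 in WT and 22 in PMSCV. In WT_K118R over WT 7 of the 11 were higher and 2 lower past 2-fold, against 19.2% and 20.9% of all genes. The 2 lower were the plakins PPL and EVPL, with 0 and 2 counts in WT_K118R and 41 and 7 in WT. With an interval excluding 1 it was 5 and 1, against 1.91% and 2.40%.

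Suprabasal cells build the cornified envelope as they mature. A list of its genes and of others from maturing squamous cells had its highest sum where the mucosal keratins were high. The 16 genes summed to 0 counts in S_PXT1_K118R and S_PXT1, 22 in WT_K118R, 405 in WT and 56 in PMSCV. S100A9 and SPINK5, among the genes outside the envelope itself, supplied 40 and 27 of the counts in WT. The sum was 18.2-fold lower in WT_K118R than in WT (11.8 to 29.3) and 5.95-fold higher in WT than in PMSCV (4.49 to 8.01). SPRR3, a small proline-rich protein of oesophageal epithelium, had 0 counts in S_PXT1_K118R and S_PXT1, 1 in WT_K118R, 125 in WT and 17 in PMSCV. CRNN, cornulin, had 69 counts in WT and 0 in the other libraries, and TGM3, a cross-linking transglutaminase, had 38 in WT, 8 in PMSCV and 0 elsewhere. In WT_K118R over WT 12 of the 14 that passed the minimum were lower and 1 higher past 2-fold, against 20.9% and 19.2% of all genes. The 1 higher was IVL, an envelope protein, with 4 counts in WT_K118R and 0 in the other libraries. LORICRIN had 0 counts throughout, and FLG had 1 count, in WT. With an interval excluding 1 it was 10 and 0, against 2.40% and 1.91%.

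Transcription factors of epithelia had few counts. The 11 genes summed to 0 counts in S_PXT1_K118R, 1 in S_PXT1, 41 in WT_K118R, 50 in WT and 63 in PMSCV. EHF, an ETS factor, had 19 counts in WT_K118R, 22 in WT and 18 in PMSCV, and 0 in the rest. TP63, the factor that maintains basal cells, had 7, 2 and 12 counts in WT_K118R, WT and PMSCV, and KLF5 had 2, 7 and 16.

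Summed, intermediate filament genes other than keratins did not divide the libraries in this way, and VIM made up much of the sum. The 14 genes summed to 120 counts in S_PXT1_K118R, 111 in S_PXT1, 187 in WT_K118R, 188 in WT and 140 in PMSCV, and the ratio of S_PXT1 to PMSCV was 0.869 (0.671 to 1.12). VIM, the filament protein of blood and connective tissue cells, had 78 counts in S_PXT1_K118R, 84 in S_PXT1, 126 in WT_K118R, 92 in WT and 87 in PMSCV. LMNA, of the nuclear lamina, had 19, 16, 22, 29 and 16 counts in the same order. LMNB1, another lamin, had 10 counts in S_PXT1_K118R, 2 in S_PXT1, 26 in WT_K118R, 17 in WT and 21 in PMSCV. It was 9.58-fold lower in S_PXT1 than in PMSCV (2.34 to 84.3). DES, also a smooth muscle marker here and picked out for its values, had 28 counts in WT, 1 in PMSCV and 0 elsewhere. With an interval excluding 1, 3 of the 10 that passed the minimum were lower in S_PXT1 than in WT, against 6.30% of all genes. In S_PXT1 over PMSCV it was 1 of 10, against 7.33%. None was higher in either comparison.

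**Figure D5:**
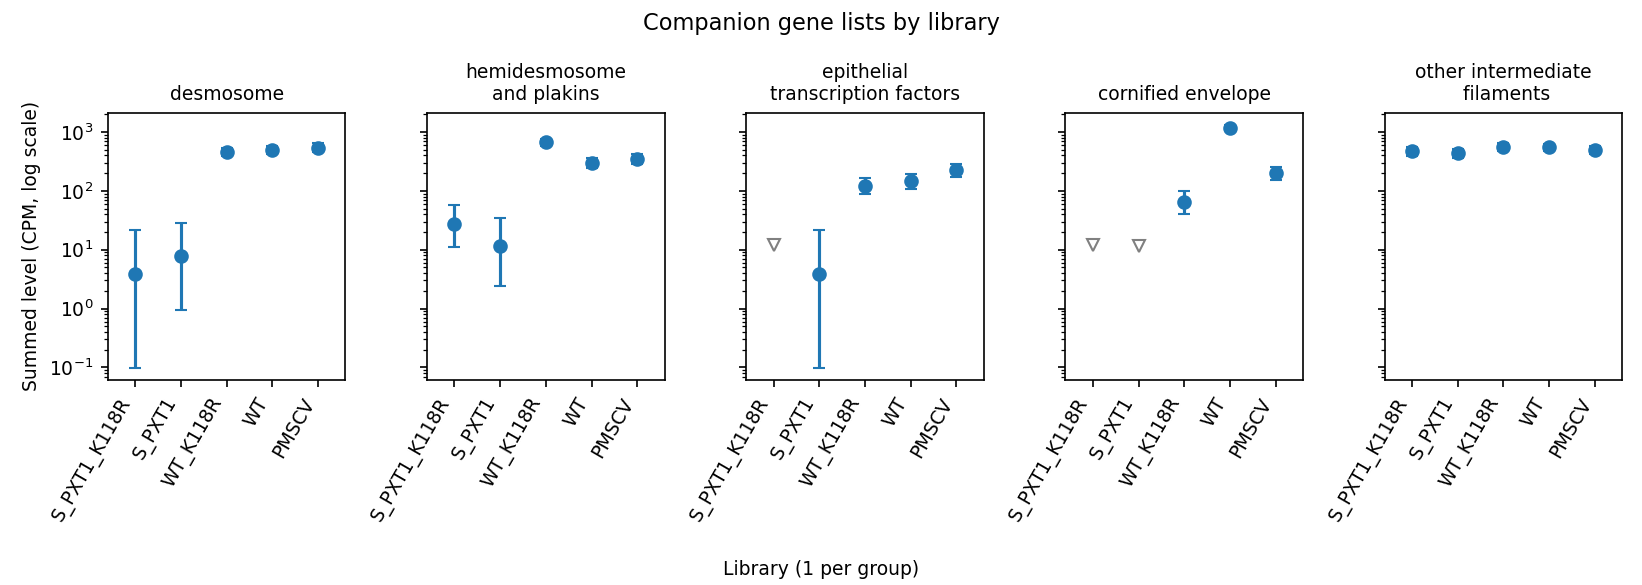
Summed level of 5 companion lists (panels) in the 5 libraries (horizontal axis), in CPM on a log scale. Circles are levels with exact 95% Poisson intervals and open triangles mark the level of 3 counts in a library with 0 counts. The list of hemidesmosome genes and plakins is highest in WT_K118R and the cornified envelope list in WT. The summed other intermediate filaments are between 433 and 554 CPM in all 5 libraries.

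Markers of other tissues were counted in the same libraries as the keratins. Prostate epithelium markers, with 6 to 7 of 8 genes detected in each of WT_K118R, WT and PMSCV, summed to 0 counts in S_PXT1_K118R, 2 in S_PXT1, 152 in WT_K118R, 146 in WT and 139 in PMSCV, and simple epithelium markers, of which KRT19 is 1, to 0, 2, 50, 55 and 69. For the prostate list the ratio was 1.06 in WT_K118R over WT (0.835 to 1.33) and 0.864 in WT over PMSCV (0.680 to 1.10). The simple epithelium list had a ratio of 0.921 in WT_K118R over WT (0.615 to 1.38) and was lower in WT than in PMSCV, at 0.656 (0.451 to 0.948). Squamous epithelium markers summed to 3, 1, 62, 264 and 62 counts in the same order, of which SPRR3 and CRNN, which the cornified list holds too, supplied 194 in WT. Plasma cell markers summed to 2, 2, 22, 458 and 657 counts and smooth muscle markers to 2, 1, 8, 300 and 76, so both were low in WT_K118R, as the mucosal keratins were. Fibroblast markers summed to 195, 187, 587, 453 and 437 counts, and the pro-B and blood cell markers to 168, 170, 156, 317 and 214. The blood cell sum rests on different genes, mainly SPI1 in S_PXT1_K118R and S_PXT1 and mainly LCP1 in WT_K118R. In S_PXT1_K118R and S_PXT1 the fibroblast sum was mainly COL1A1, with 91 and 100 counts, and COL3A1, with 95 and 73. The other fibroblast markers were low there, with 4 and 3 counts for COL1A2, 5 and 5 for DCN, and 0 and 6 for LUM. COL1A2 had 102 counts in WT_K118R, 68 in WT and 90 in PMSCV. The part of these tissue-type reads, and of the lower number of genes detected in S_PXT1_K118R and S_PXT1, in the keratin differences was not tested. An effect of a construct on keratins cannot be told apart from any other difference between single libraries.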

How the data were processed

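The members and lists were chosen with earlier results of these data known. The authors deposited 1 table that holds, for each human gene model and library, an unnormalised count and an FPKM value, per the file headers. FPKM divides the count by gene length and by library size. Of the tools, cutadapt 1.9, HISAT2 2.2.1 and FastQC appear in the submitters' processing notes, without their settings. No source used here gives the counter, strand setting, genome build or annotation. There were 0 value columns without a library.

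CPM came from library sizes with trimmed mean of M values factors (edgeR 4.0.16, R 4.3.3). No test was fitted, as each group held 1 library. Folds are ratios of scaled counts with exact 95% (Clopper-Pearson) intervals computed with scipy 1.17.1. A library at 0 counts was set to 3 counts, per library or per summed group, and the fold written as "at least". Such bounds hold no counting error for the other library. Intervals cover counting error only, since PCR copies cannot be told from separate molecules here. Named were the 9 keratins of the 4 groups, other members with at least 10 summed counts and the 3 most counted genes of each list, of which 1 is not reported here. The interval and 2-fold calculations were tested on simulated Poisson counts, for genes with at least 100 counts in WT_K118R and WT together. Genes with fewer counts and the bounds were not tested in this way. Alternatives used library totals, DESeq2 1.42.0 size factors, deposited FPKM, other pseudocounts, filters and thresholds, and pseudogene rows. Coordinates are those of the table.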

Additional observations from a re-analysis of the deposited data

Results flagged for a closer look

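Keratin pseudogene rows, which the keratin sums leave out, held 10 counts in WT_K118R, 1 in WT and 0 in S_PXT1_K118R and S_PXT1, against 4 in PMSCV. They are given here as counts outside the keratin sums. The ratio of WT_K118R to PMSCV was 2.08 (95% interval 0.601 to 9.10), an interval that includes equal levels. In WT_K118R the rows were KRT16P6 with 5 counts, KRT17P2 with 3 and KRT16P1 with 2, copies of KRT16 and KRT17, and together they came to 1.62% of the keratin counts there.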

How the results depend on the processing

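Of 121 alternative values of summed keratin folds 108 lay within the counting interval of the reported fold, or, for a bound, of the ratio to 3 counts. Of 108 alternative counts of members 94 were within 1.5 times the reported count. All values from library totals, DESeq2 size factors and added pseudogene rows were among them. Leaving out KRT4 and KRT13, chosen after seeing the data, turned the family fold to 0.910 in WT over PMSCV and to 1.77 in WT_K118R over WT. It also raised the shares of keratin counts in WT to 37.9% for basal, 34.5% for stress and 6.50% for simple keratins, and the other 6 shares stayed within their intervals. From deposited FPKM, which weights genes by length, these 2 folds were 1.83 and 0.860, and the basal fold in WT_K118R over WT was 2.95. Without KRT5 the family fold in WT_K118R over WT was 0.597, and the basal folds were 0.0914 in S_PXT1 over PMSCV, 0.640 in WT over PMSCV, 0.143 in S_PXT1 over WT and 4.89 in WT_K118R over WT. Without KRT6A the stress folds were 0.352 in WT over PMSCV, 0.103 in S_PXT1 over WT and 0.0568 in S_PXT1_K118R over WT_K118R. The bounds among these are smaller because fewer counts remain. The members past 2-fold were 4 higher and 1 lower in WT over PMSCV at a mean of 5 CPM or with an interval excluding 1, and 4 higher with FPKM. They were 3 higher in WT_K118R over WT under the first 2 of these, and 9 lower in S_PXT1_K118R over WT_K118R with the interval. In S_PXT1_K118R over S_PXT1 they were 0 in both directions with a pseudocount of 5 CPM, with FPKM or with the interval. No paired analysis was possible because each group holds 1 library and the labels give no replicate numbers. With at most 882 keratin counts in a library, genes at or under 3 counts in both libraries of a comparison were given no fold.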
